A study of Homo sapiens with 8 samples.

Results

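The genes for FTO, ALKBH5, ALKBH1, ALKBH2 and ALKBH3, 5 demethylases of the AlkB family, were followed in HCT116 cells. The cells were transfected with si-YTHDF3 or with NC, a control siRNA. HCT116 is an established human colorectal carcinoma line. These 5 genes were chosen by gene name from the 33711 genes in the transcript table. Every annotated transcript of them was kept, 45 of 134605. The series holds 8 libraries in 4 groups of 2, namely si-YTHDF3 input, si-YTHDF3 IP, NC input and NC IP, where input is fragmented total RNA and IP is the fraction precipitated by an m6A antibody. Expression values were analysed for the 4 input libraries alone, called si-YTHDF3 1, si-YTHDF3 2, NC 1 and NC 2 here. Both groups are the same cell line under transient siRNA transfection. The labels do not say whether the libraries of a group came from separate cultures, so the p-values measure no more than how far these libraries differ, and that spread can be technical. The study's methods list a pair of siRNA sequences under the names si-YTHDF3-1 and si-YTHDF3-2, which are also the names in the titles of these libraries. The number may therefore name the siRNA and not a replicate, in which case the SD within si-YTHDF3 is a spread between siRNAs; the labels do not settle this.

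The AlkB family consists of dioxygenases that use iron and 2-oxoglutarate. Its demethylases, among them the 5 members, oxidize a methyl group on a nucleic acid base, after which the group leaves as formaldehyde. FTO and ALKBH5 are the known erasers of m6A, the adenosine mark that the METTL3 complex writes on mRNA and that YTH proteins such as YTHDF3 read. FTO also acts on the cap-adjacent mark m6Am. ALKBH2 and ALKBH3 directly repair methylated bases, ALKBH2 in double-stranded DNA and ALKBH3 in single-stranded DNA and RNA, and ALKBH1 acts on tRNA and in mitochondria.

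FTO was the member that stood apart, with a summed level 2.60 times as high in si-YTHDF3 as in NC cells, although it did not pass the adjusted threshold. ALKBH5, the other m6A eraser, differed by less than the spread between libraries, and so did ALKBH1, ALKBH2 and ALKBH3. Within FTO, the transcripts that carried the excess differed between the si-YTHDF3 libraries. The 11766-base coding transcript ENST00000471389 was not among them, with a mean of 0.441 FPKM in si-YTHDF3 and 0.800 FPKM in NC, and overlap. In ALKBH5 and ALKBH3 the division of the level between transcripts varied more than the gene's level.

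The upstream sequences of the m6A erasers are shown first, because the FTO level divides below into transcripts that begin at this start and transcripts that begin elsewhere. Each is the 250 bases before the RefSeq start (GRCh38.p14), read 5′ to 3′ on the gene's strand, with every CG dinucleotide in capitals. The FTO stretch is chr16:53703906-53704155 and the ALKBH5 stretch chr17:18183578-18183827, both on the plus strand.
FTO: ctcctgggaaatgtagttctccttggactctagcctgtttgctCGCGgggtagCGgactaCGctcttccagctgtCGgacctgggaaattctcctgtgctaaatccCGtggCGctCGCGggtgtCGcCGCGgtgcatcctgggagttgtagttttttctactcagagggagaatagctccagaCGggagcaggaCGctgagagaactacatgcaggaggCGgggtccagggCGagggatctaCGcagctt
ALKBH5: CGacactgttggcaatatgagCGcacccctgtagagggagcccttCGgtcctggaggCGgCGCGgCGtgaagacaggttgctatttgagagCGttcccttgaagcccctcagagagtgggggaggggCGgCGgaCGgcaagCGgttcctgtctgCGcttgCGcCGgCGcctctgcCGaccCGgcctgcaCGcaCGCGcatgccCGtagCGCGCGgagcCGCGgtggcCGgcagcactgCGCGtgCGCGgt
The FTO stretch held 17 CG and the ALKBH5 stretch 32 CG, a motif that reads the same on both strands. Over all 35116 RefSeq windows of this length the median was 11 CG, 39.0% had at least as many as FTO and 9.52% at least as many as ALKBH5. The same stretch held 18 CG for ALKBH1, 19 for ALKBH2 and 18 for ALKBH3. Neither TATAAA nor TTTAAA was found in any of the 5 stretches.

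The knockdown was read first from its target. YTHDF3 had 2.53 and 3.25 FPKM in si-YTHDF3 cells, against 25.9 and 12.0 FPKM in NC cells, all transcripts summed, where FPKM is fragments scaled to transcript length and to the size of the library. The groups did not overlap, and the log2 fold change of FPKM + 1 was -2.27 (95% interval -3.14 to -1.40, limma adjusted p = 0.135). Without NC 1 it was -1.74 and without NC 2 -2.80. In all, 14474 to 14483 genes reached 1 FPKM in the si-YTHDF3 libraries and 14357 to 14361 in the NC libraries. All 5 epithelial markers were expressed (summed FPKM 1683 and 1892 in si-YTHDF3, 1789 and 1614 in NC), whereas the leukocyte markers summed to 0.126 and 0.163 FPKM in si-YTHDF3 and 0.144 and 0.0809 FPKM in NC. The 3 fibroblast markers in the table summed to 11.95 and 13.75 FPKM in si-YTHDF3 and 15.85 and 12.04 FPKM in NC. Nearly all of this was COL1A1, a fibrillar collagen chain, at 11.89 and 13.70 FPKM in si-YTHDF3 and 15.78 and 11.99 FPKM in NC. The other fibroblast markers were thus close to 0. In bulk RNA, fewer cells with a transcript and less of it per cell cannot be told apart.

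Turning to the erasers of m6A, FTO (ENSG00000140718, chr16:53701692-54153448, plus strand, 18 transcripts) had 14.9 and 8.36 FPKM in si-YTHDF3 cells, against 3.61 and 5.30 FPKM in NC cells. Both si-YTHDF3 libraries lay above both NC libraries, and si-YTHDF3 1 stood well above si-YTHDF3 2. The means were 11.6 ± 4.59 FPKM in si-YTHDF3 and 4.46 ± 1.19 FPKM in NC (SD, n = 2 each). The log2 fold change was 1.18 (SE 0.294, 95% interval 0.44 to 1.91), with a limma p of 0.00821 before and 0.225 after adjustment over 14457 genes. At the adjusted threshold 0 of the 5 members passed, and 4 of all genes did (0.0277%). FTO was the only member with an unadjusted p under 0.05 and higher in si-YTHDF3, which held for 8.29% of all genes. It was also the only one of the 5 with both si-YTHDF3 libraries above both NC libraries, as were 25.3% of all genes, and the only one with a ratio of means of at least 2, as were 1.49%. Of the 4 other members, all differed between libraries of a group by more than between the group means.

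ALKBH5 (ENSG00000091542, chr17:18183078-18209954, plus strand, 3 transcripts) had 25.6 and 29.4 FPKM in si-YTHDF3 cells and 27.8 and 27.7 FPKM in NC cells. The NC libraries fell between the si-YTHDF3 libraries. The log2 fold change was -0.015 (95% interval -0.35 to 0.32, limma adjusted p = 0.970). The ALKBH5 level was 1.73 and 3.52 times that of FTO in the si-YTHDF3 libraries, against 7.68 and 5.24 times in the NC libraries. FTO thus made up 36.7% and 22.1% of the summed FPKM of both erasers in si-YTHDF3, and 11.5% and 16.0% in NC. The groups did not overlap in this share, whose difference was not tested.

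**Figure D1:**
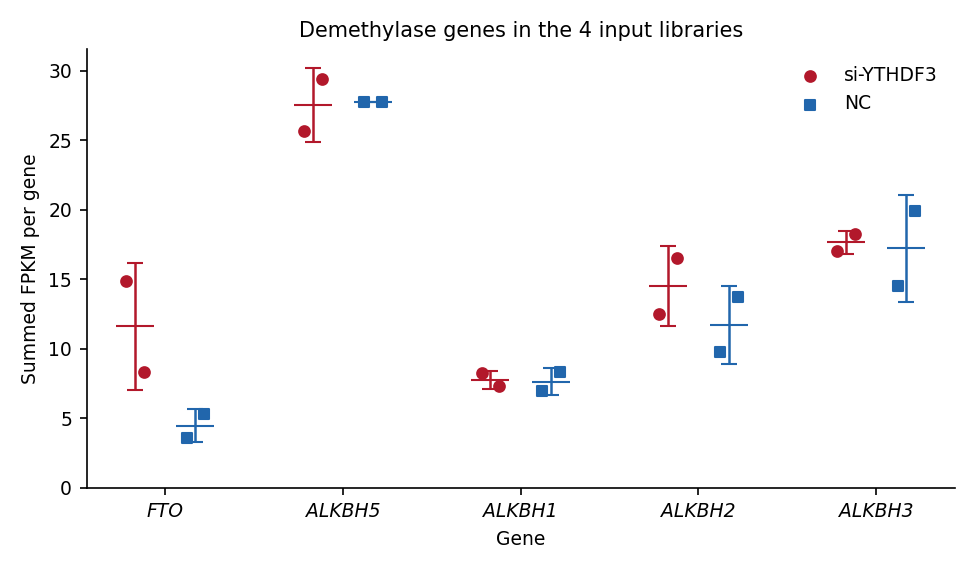
Summed FPKM of FTO, ALKBH5, ALKBH1, ALKBH2 and ALKBH3 in each input library, with si-YTHDF3 (red circles) left of NC (blue squares), and the mean with its SD as bars (n = 2 each). FTO is the gene whose groups do not overlap, at 14.9 and 8.36 FPKM in si-YTHDF3 and 3.61 and 5.30 FPKM in NC.

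Among the members that act on DNA and other RNA, ALKBH2 (ENSG00000189046, chr12:109088188-109093631, minus strand, 8 transcripts) had 12.5 and 16.5 FPKM in si-YTHDF3 cells and 9.75 and 13.7 FPKM in NC cells. The groups overlapped, and the log2 fold change was 0.29 (95% interval -0.25 to 0.83, limma adjusted p = 0.553). ALKBH3 (ENSG00000166199, chr11:43880811-43920266, plus strand, 12 transcripts) had 17.1 and 18.2 FPKM in si-YTHDF3 and 14.5 and 19.9 FPKM in NC. Here the si-YTHDF3 libraries lay between the NC libraries, and the log2 fold change was 0.048 (95% interval -0.40 to 0.50, limma adjusted p = 0.922). ALKBH1 (ENSG00000100601, chr14:77672404-77708020, minus strand, 4 transcripts) had 8.24 and 7.32 FPKM in si-YTHDF3 and 6.93 and 8.31 FPKM in NC. Again the si-YTHDF3 libraries lay between the NC libraries, with a log2 fold change of 0.029 (95% interval -0.35 to 0.41, limma adjusted p = 0.945).

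Since FPKM are per length, the members can be ordered by the level of their summed transcripts. In si-YTHDF3 cells the order of means was ALKBH5, ALKBH3, ALKBH2, FTO and ALKBH1, and of these neighbours ALKBH2 and FTO overlapped between libraries. In NC cells it was ALKBH5, ALKBH3, ALKBH2, ALKBH1 and FTO, and no neighbours overlapped. FTO was therefore the lowest of the 5 in both NC libraries, whereas in both si-YTHDF3 libraries ALKBH1 was the lowest, at 8.24 and 7.32 FPKM. The other 4 members kept the same order in both groups. This order depends on which transcripts are summed. With protein-coding transcripts alone, ALKBH2 had 12.0 and 16.1 FPKM in si-YTHDF3 and 9.33 and 13.2 FPKM in NC. ALKBH3 then had 5.87 and 7.72 FPKM in si-YTHDF3 and 7.05 and 3.27 FPKM in NC, below ALKBH2 in every library. FTO then had 3.28 FPKM in si-YTHDF3 2, below ALKBH1 at 5.44 FPKM.

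**Figure D2:**
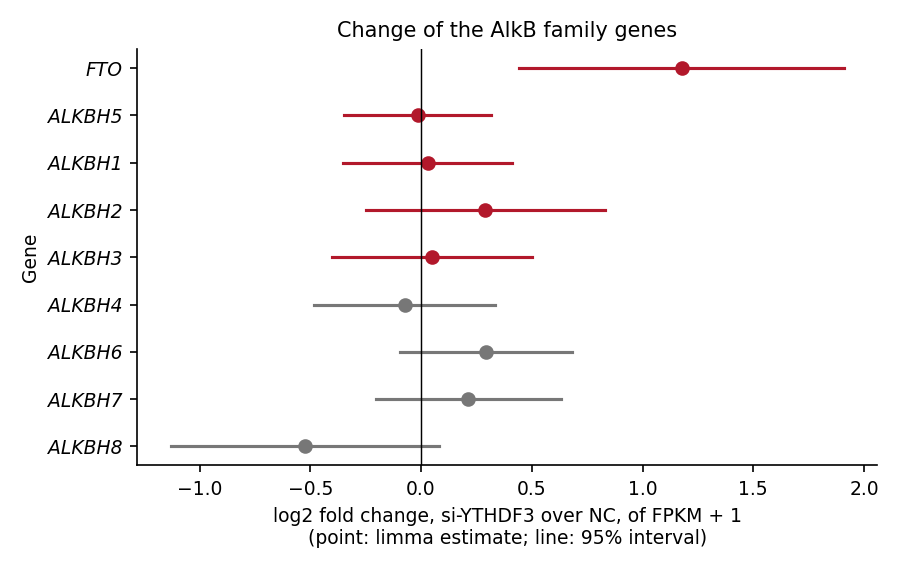
Log2 fold change of FPKM + 1, si-YTHDF3 over NC, on the horizontal axis for the 5 members (red) and the 4 other AlkB homologues (grey), with the limma estimate as a point and its 95% interval as a line. The FTO interval, 0.44 to 1.91, lies above 0, and those of the other 8 genes include 0. Of all 14457 tested genes, 1199 had an interval above 0 and 944 one below 0.

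The 18 annotated FTO transcripts did not move together. ENST00000268349, a protein-coding transcript of 3 exons, begins 229874 bases downstream of the RefSeq start. It had 5.08 and 0.359 FPKM in si-YTHDF3, against 0 and 0.00315 FPKM in NC. ENST00000463855, also protein-coding and of 3 exons, begins 207100 bases downstream. It had 3.42 and 0.0187 FPKM in si-YTHDF3 and 0.00854 and 0.219 FPKM in NC. ENST00000636218, protein-coding and beginning close to the RefSeq start, had 2.84 and 0 FPKM in si-YTHDF3 and 0.0431 and 0.0491 FPKM in NC. Each of these exceeded 1 FPKM in si-YTHDF3 1 alone. In contrast, the processed transcript ENST00000636030, which has no annotated reading frame, had 0.126 and 3.98 FPKM in si-YTHDF3 and 0.0367 and 2.57 FPKM in NC, and was high in the second library of either group.

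ENST00000563011, a protein-coding transcript that begins 122205 bases downstream, was the FTO transcript with a similar level within each group. It had 2.09 and 1.97 FPKM in si-YTHDF3 and 1.53 and 1.18 FPKM in NC. The groups did not overlap, and the log2 fold change was 0.37 (95% interval -0.24 to 0.98, limma adjusted p = 0.780 over 38284 transcripts). ENST00000471389, the 11766-base protein-coding transcript of 9 exons, had 0.366 and 0.516 FPKM in si-YTHDF3 and 1.22 and 0.380 FPKM in NC, highest in NC 1. The other 12 FTO transcripts stayed under 1 FPKM on average in both groups, and 9 of the 18 were listed at 0 in at least 1 library.

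**Figure D3:**
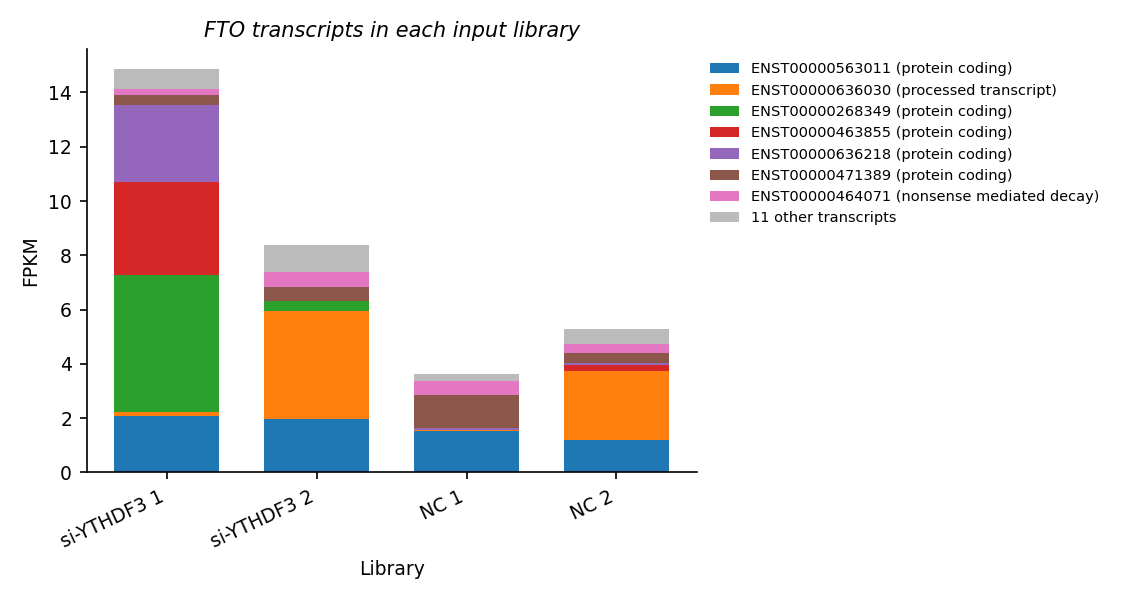
FPKM of FTO transcripts (vertical axis, stacked) in each input library, with the 7 highest in colour and the other 11 summed in grey. The blue ENST00000563011 is present in all libraries, at 2.09 and 1.97 FPKM in si-YTHDF3 and 1.53 and 1.18 FPKM in NC, whereas ENST00000268349 (green) and ENST00000463855 (red) build 57.2% of the level in si-YTHDF3 1.

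ENST00000268349 and ENST00000463855 together made up 57.2% of FTO in si-YTHDF3 1 and 4.52% in si-YTHDF3 2, against 0.236% in NC 1 and 4.20% in NC 2. Without these 2 transcripts FTO summed to 6.35 and 7.98 FPKM in si-YTHDF3 and 3.60 and 5.08 FPKM in NC, so the groups still did not overlap. Without ENST00000636218 and ENST00000636030 as well, the other 14 transcripts summed to 3.39 and 4.01 FPKM in si-YTHDF3 and 3.53 and 2.46 FPKM in NC, and the groups overlapped. These sets of transcripts were chosen after their values were seen.

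Divided by start, the 9 FTO transcripts that begin within 500 bases of the RefSeq start, next to the sequence shown above, summed to 3.69 and 5.50 FPKM in si-YTHDF3 and 1.87 and 3.57 FPKM in NC. The 9 that begin elsewhere summed to 11.2 and 2.86 FPKM in si-YTHDF3 and 1.75 and 1.73 FPKM in NC. Both classes were higher in both si-YTHDF3 libraries than in both NC libraries, by a narrow margin in the first class, and si-YTHDF3 1 had 75.1% of its FTO level in the second. Protein-coding transcripts gave 96.0% and 39.2% of the FTO level in si-YTHDF3, and 82.9% and 41.5% in NC, so that the second library of each group was the lower one.

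The FTO difference also depended on how transcripts of unequal length were added. Weighted by length, as FPKM times kilobases, FTO had 40.8 and 19.1 units in si-YTHDF3 and 18.6 and 13.0 units in NC. The groups stayed apart by a small margin, since the long transcript ENST00000471389 made up 77.0% of this sum in NC 1. The log2 fold change on that scale was 0.76 (limma adjusted p = 0.344), against 1.18 for the plain sum. Leaving out si-YTHDF3 1 gave 0.80 and leaving out si-YTHDF3 2 gave 1.56.

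**Figure D4:**
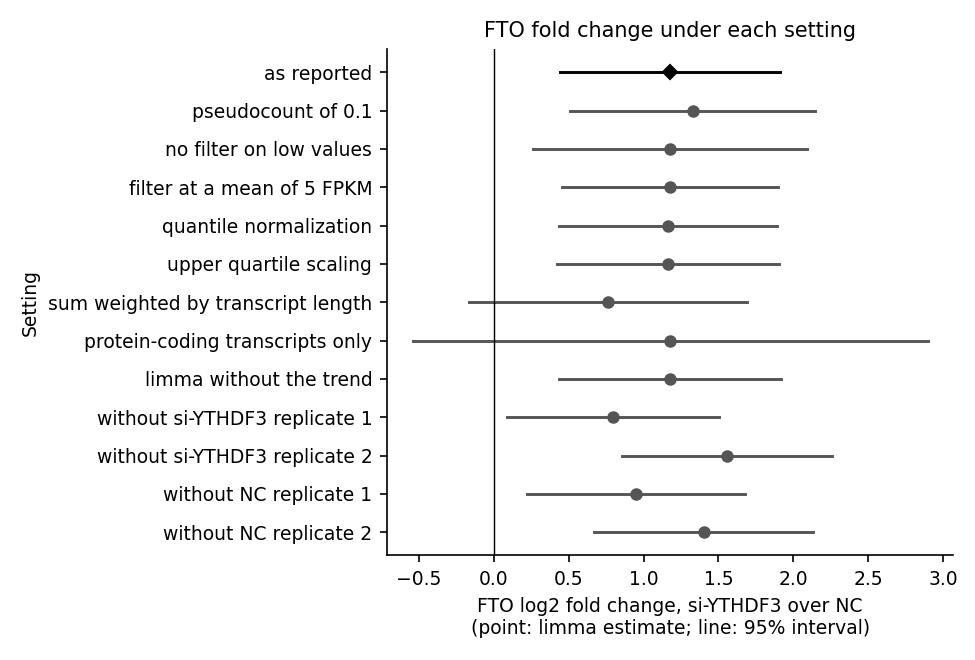
FTO log2 fold change, si-YTHDF3 over NC, under each setting except the replicate blocks, with the limma estimate as a point and its 95% interval as a line. The black diamond is the value as reported, 1.18. Where a library is left out, its group has no spread left to enter the interval. All estimates lie above 0, between 0.76 and 1.56, and the intervals for the length-weighted sum and for protein-coding transcripts include 0.

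In ALKBH5, the protein-coding ENST00000399138 had 18.1 and 21.3 FPKM in si-YTHDF3 and 26.6 and 17.7 FPKM in NC. The retained-intron transcript ENST00000490106 had 7.02 and 7.51 FPKM in si-YTHDF3 and 0.554 and 9.0 FPKM in NC. It thus made up 27.4% and 25.5% of ALKBH5 in si-YTHDF3, and 2.00% and 32.5% in NC. NC 1 was the library that differed, high in the coding transcript and low in the retained-intron one. Both together summed to 25.1 and 28.9 FPKM in si-YTHDF3 and 27.2 and 26.7 FPKM in NC, closer than either transcript alone. ENST00000541285, the other coding transcript, had 0.501 and 0.559 FPKM in si-YTHDF3 and 0.579 and 1.03 FPKM in NC.

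In ALKBH3, too, single transcripts differed between libraries while their sum differed less. ENST00000302708, its protein-coding transcript with the highest level, had 4.12 and 5.43 FPKM in si-YTHDF3 and 4.21 and 1.12 FPKM in NC. ENST00000532962, annotated to nonsense-mediated decay, had 2.98 and 0.117 FPKM in si-YTHDF3 and 0.540 and 5.26 FPKM in NC. NC 2 was low in the coding transcript and highest in the other, and the pair summed to 7.10 and 5.55 FPKM in si-YTHDF3 and 4.75 and 6.39 FPKM in NC. The retained-intron ENST00000530754, 582 bases long, had the highest mean of any ALKBH3 transcript, at 6.64 and 7.51 FPKM in si-YTHDF3 and 4.93 and 9.63 FPKM in NC. The protein-coding ENST00000524742 was lower in si-YTHDF3 without overlap, at 0.997 and 1.15 FPKM against 2.11 and 1.89 FPKM in NC, with a log2 fold change of -0.53 (95% interval -1.14 to 0.076, limma adjusted p = 0.736). Protein-coding transcripts gave 34.4% and 42.3% of ALKBH3 in si-YTHDF3, and 48.6% and 16.4% in NC.

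**Figure D5:**
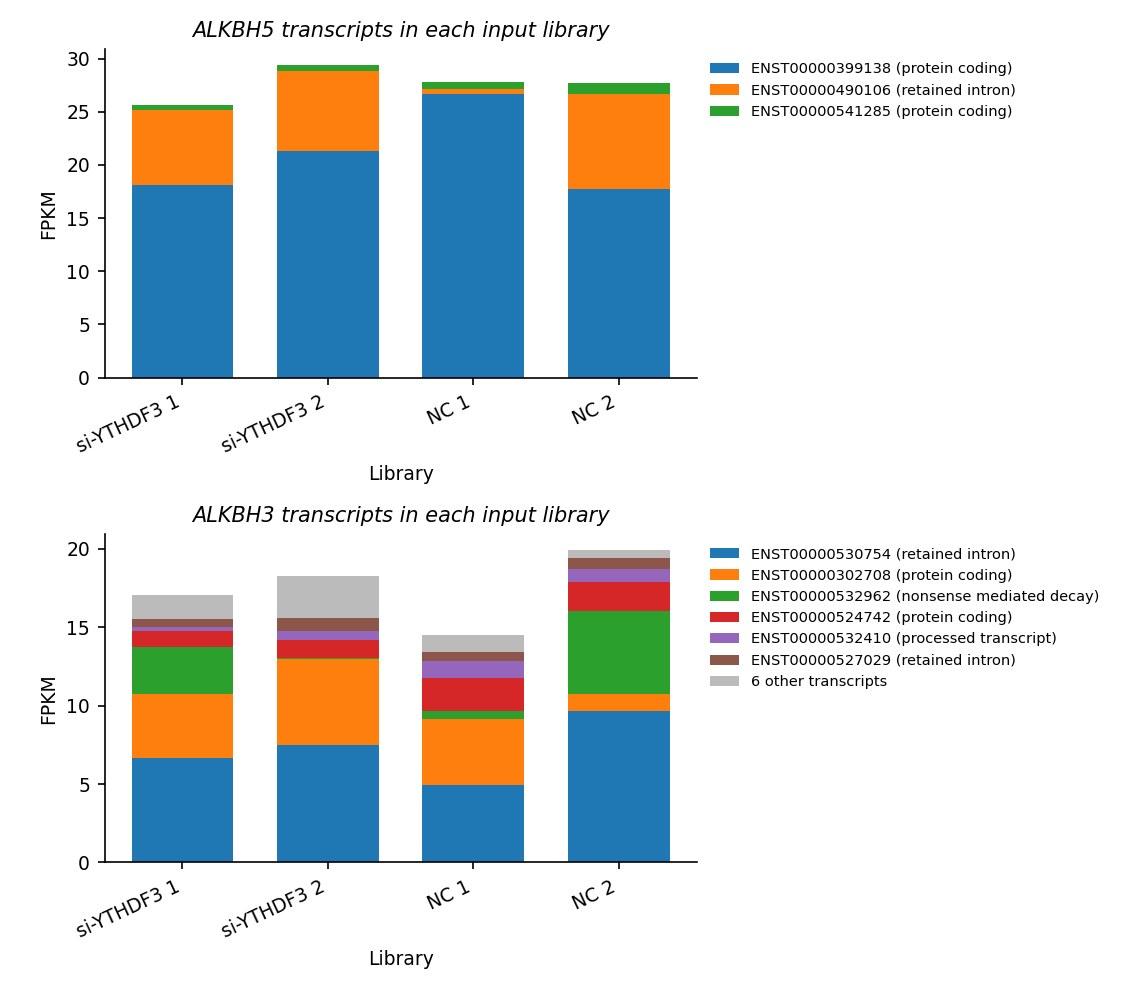
FPKM of ALKBH5 (top) and ALKBH3 (bottom) transcripts, stacked on the vertical axis, in each input library, with the 6 other ALKBH3 transcripts summed in grey. In ALKBH5 the retained-intron part (orange) is 0.554 FPKM in NC 1 and 7.02 to 9.0 FPKM in the other libraries, and in ALKBH3 the nonsense-mediated decay part (green) runs between 0.117 FPKM in si-YTHDF3 2 and 5.26 FPKM in NC 2.

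ALKBH2 was carried by ENST00000343075, which had 6.42 and 9.92 FPKM in si-YTHDF3 and 6.63 and 7.92 FPKM in NC, with overlap. Of its minor coding transcripts, ENST00000536242 had 0.895 and 0.641 FPKM in si-YTHDF3 and was listed at 0 in both NC libraries. ENST00000440112 had 1.71 and 0.104 FPKM in si-YTHDF3 and 0.0634 and 0.0588 FPKM in NC, so it was high in si-YTHDF3 1 alone. ENST00000536358 had 0.855 and 1.21 FPKM in si-YTHDF3 and 1.33 and 1.56 FPKM in NC, lower in si-YTHDF3 without overlap. ENST00000619381 and ENST00000543444, both protein-coding, ranged between 0.306 and 2.52 FPKM and overlapped.

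In ALKBH1, the one protein-coding transcript, ENST00000216489, had 6.10 and 5.44 FPKM in si-YTHDF3 and 5.67 and 6.03 FPKM in NC, which was 74.0% and 74.2% of the gene in si-YTHDF3 and 81.7% and 72.6% in NC. The nonsense-mediated decay transcript ENST00000555100 had 1.04 and 0.965 FPKM in si-YTHDF3 and 0.317 and 1.02 FPKM in NC, low in NC 1 alone.

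Of the 45 member transcripts, 14 had a mean of at least 1 FPKM and were tested. None of the 14 passed at an adjusted p under 0.05, as none of all 38284 transcripts did (0%), and 0 of 14 had an unadjusted p under 0.05, against 7.21% of all transcripts. In 4 of the 14 the groups did not overlap, 2 higher and 2 lower in si-YTHDF3, against 39.8% of all transcripts. For 11 of the 14, libraries of a group differed by more than the group means did. The depth of the libraries is unknown, so that how much of this spread is counting error could not be assessed.

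RPGRIP1L, a ciliary transition-zone gene on the opposite strand, shares 2247 bases with the FTO span. It had 8.31 and 5.02 FPKM in si-YTHDF3 and 4.50 and 5.08 FPKM in NC (log2 fold change 0.37, limma adjusted p = 0.487), and was high in si-YTHDF3 1, the library with the highest FTO level. Without si-YTHDF3 1 its log2 fold change was 0.058. Whether reads were counted by strand is not given in the sources used here, so reads from the shared stretch cannot be assigned by strand. ENST00000636491 begins at chr16:53701692, the first base of the FTO span, and every other FTO transcript at chr16:53703963 or later. If the 2247 shared bases open the FTO span, ENST00000636491 is the one FTO transcript that reaches them. ENST00000636491 had 0.0372 and 0.113 FPKM in si-YTHDF3 and 0.0424 and 0.0233 FPKM in NC. Sharing of reads between the genes was not tested. The other 7 genes that overlap a member's span stayed under 1 FPKM in every library, including ALKBH3-AS1, at 0.198 and 0.101 FPKM in si-YTHDF3 and 0.0816 and 0.126 FPKM in NC. Over the 14 tested neighbours of the members' loci, 0 passed the adjusted threshold, 9 had a positive and 5 a negative log2 fold change, and the median was 0.066, beside 0.012 over all tested genes. The neighbours with the largest estimates were ACCS (0.38), RPGRIP1L (0.37) and CHD9 (-0.31).

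Of the other AlkB homologues, 0 of 4 passed the adjusted threshold. ALKBH8, which modifies the wobble uridine of tRNA, had 7.86 and 4.58 FPKM in si-YTHDF3 and 8.54 and 9.71 FPKM in NC (log2 fold change -0.52, 95% interval -1.13 to 0.083). It was -0.19 without si-YTHDF3 2, and -0.86 without si-YTHDF3 1. ALKBH6 had 11.5 and 14.1 FPKM in si-YTHDF3 and 10.7 and 9.66 FPKM in NC (0.29). ALKBH7, a mitochondrial member, had a log2 fold change of 0.21 and ALKBH4 one of -0.074. With all libraries, FTO was the one of these 9 family genes whose interval did not include 0. Of all 14457 tested genes, 1199 had an interval above 0 and 944 one below 0, so such an interval was common.

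Around the erasers stand the enzymes that write and the proteins that read m6A. Of the 12 writer genes tested, 0 passed the adjusted threshold, 3 had a positive and 9 a negative log2 fold change, with a median of -0.16. CBLL1 (HAKAI), a subunit of the writer complex, had 5.25 and 7.32 FPKM in si-YTHDF3, against 18.8 and 18.7 FPKM in NC (log2 fold change -1.45, limma adjusted p = 0.114). RBM15B, which recruits the complex to RNA, had 16.3 and 19.0 FPKM in si-YTHDF3 and 12.3 and 10.7 FPKM in NC (0.58, adjusted p = 0.230), and VIRMA, its scaffold, had a log2 fold change of -0.35. Of the 11 readers tested, 2 had a positive and 9 a negative log2 fold change and 0 passed, with a median of -0.15, and YTHDF3 itself is among them. IGF2BP3, which stabilizes m6A-marked mRNA, had 22.4 and 28.1 FPKM in si-YTHDF3, against 48.0 and 49.1 FPKM in NC (-0.93, adjusted p = 0.149). The groups did not overlap for 3 writers higher and 5 lower in si-YTHDF3, and for 1 reader higher and 5 lower, where 25.3% of all genes were higher and 23.7% lower without overlap.

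The methyltransferases for m1A, the mark that ALKBH1 and ALKBH3 remove, gave 0 of 4 passing, with log2 fold changes between -0.32 for TRMT10C and 0.26 for TRMT61A. Of 10 genes for the repair of alkylated DNA, where ALKBH2 and ALKBH3 act, 0 passed, 7 had a positive and 3 a negative log2 fold change, and the median was 0.25. ASCC2, a subunit of the complex that works with ALKBH3, had 36.0 and 37.3 FPKM in si-YTHDF3 and 26.1 and 22.0 FPKM in NC (0.59, limma adjusted p = 0.218). XRCC1, a scaffold of base excision repair, had 42.9 and 50.9 FPKM in si-YTHDF3 and 18.5 and 33.5 FPKM in NC (0.88, adjusted p = 0.280), and its log2 fold change was 0.47 without NC 1 and 0.43 with protein-coding transcripts alone. MGMT, the methylguanine methyltransferase, had 4.07 and 5.12 FPKM in si-YTHDF3 and 3.33 and 2.56 FPKM in NC (0.50, adjusted p = 0.310). Of the 10 repair genes, 5 were higher and 2 lower in si-YTHDF3 without overlap, these 3 among the higher ones, beside 25.3% and 23.7% of all genes.

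The genes listed around 2-oxoglutarate, the cosubstrate of the family, split evenly. The list holds genes that make or use it, and also succinate dehydrogenase subunits and FH, which act on succinate and fumarate. Of 17 tested, 0 passed, 8 had a positive and 9 a negative log2 fold change, with a median of -0.031. The largest estimate was for SDHC, a subunit of succinate dehydrogenase, at 11.5 and 20.1 FPKM in si-YTHDF3 and 8.62 and 9.43 FPKM in NC (0.70). It was 0.32 without si-YTHDF3 2 and 0.18 with length-weighted sums. Among 19 other dioxygenases of this chemistry, 0 passed, with 9 positive and 10 negative and a median of -0.042. The histone demethylase KDM2B had 11.3 and 14.9 FPKM in si-YTHDF3 and 7.88 and 6.33 FPKM in NC (0.79), and TET3, which oxidizes methylcytosine in DNA, had 8.02 and 8.71 FPKM in si-YTHDF3 and 6.77 and 3.82 FPKM in NC (0.61, and 0.27 without NC 2).

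Of 8 transcripts known from other cell types as FTO or ALKBH5 targets, 4 were expressed highly enough to test, and 0 passed. FOXM1, a cell cycle transcription factor that ALKBH5 regulates in glioblastoma cells, had 50.2 and 52.6 FPKM in si-YTHDF3 and 39.5 and 32.6 FPKM in NC (log2 fold change 0.51, limma adjusted p = 0.246). MYC, reported as an FTO target in leukaemia cells, had 210.0 and 238.9 FPKM in si-YTHDF3 and 181.4 and 6.06 FPKM in NC. NC 2 alone set its log2 fold change of 2.65 (adjusted p = 0.427), which was 0.30 without NC 2 and 4.99 without NC 1. CEBPA had 2.72 and 3.03 FPKM in si-YTHDF3 and 4.29 and 3.19 FPKM in NC (-0.28). RARA, which is an FTO target in leukaemia cells, had a log2 fold change of 0.084.

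The likeness of other genes to each member was measured as the Euclidean distance between centred log2(FPKM + 1) values over the 4 libraries. The pool was 7486 genes with a mean of at least 5 FPKM whose highest transcript is protein-coding, without the members. FTO had 0 genes within a distance of 0.2, whereas ALKBH5 had 1249, ALKBH1 968, ALKBH3 213 and ALKBH2 38. The values were not scaled, so a gene that varies little has more genes near it, and these counts follow how much each member varied. The nearest to FTO were PPP1R14B (0.347), with 169.7 and 127.6 FPKM in si-YTHDF3 and 67.8 and 82.8 FPKM in NC, and ABHD14B (0.351), with 14.2 and 8.29 FPKM in si-YTHDF3 and 4.48 and 7.09 FPKM in NC. Both were picked on these same values, and both had the FTO order of libraries, highest in si-YTHDF3 1 and lowest in NC 1. The nearest to ALKBH5 were HINT1 (0.0193) and SAP130 (0.0278), to ALKBH1 NUDT12 (0.0215) and FIGNL1 (0.0306), to ALKBH2 MAX (0.0254) and RCHY1 (0.0592), and to ALKBH3 VPS53 (0.0431) and NCK1 (0.0579). These distances describe 4 libraries and were not tested.

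The list of differential m6A peaks analysed here holds 99 peaks, all on chromosome 1, where no member lies, and 0 of them were annotated to a member. The m6A marking of the demethylase transcripts themselves was therefore not analysed here.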

How the data were processed

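RNA from HCT116 cells was precipitated with an m6A antibody, and input and IP libraries were sequenced. The titles of the samples gave the group and a number, taken as the replicate, which may instead name the siRNA. The values deposited by the authors are FPKM of each Ensembl transcript in the 4 input libraries (build GRCh38, per the submitters' processing notes). Aligner and quantifier: not given in the sources used here. Deposited columns of fold change, p-value and q-value hold the authors' own comparison and were not used. The deposited peak list, with its fold enrichment and log10 p-value columns, was used only to look for the members. Low FPKM were not whole multiples of 1 read, so depth is unknown and no counting interval is given.

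Each gene was given the sum of the FPKM of its transcripts. Genes, and in a fit of their own transcripts, were tested where they averaged at least 1 FPKM, on log2(FPKM + 1), which understates the change of low genes, with limma 3.58.1 in R 4.3.3 (lmFit, and eBayes with a mean trend), no covariate, and Benjamini-Hochberg adjustment at 0.05 over all genes tested. The procedure was tested on simulated data. Intervals are 95% and come from the same fit. Upstream sequences are RefSeq's (GRCh38.p14), and all 5 members were matched by symbol. Figures were drawn with matplotlib 3.10.9.

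The members and gene lists were chosen with earlier results of these data known. Named are the 5 members, YTHDF3, member transcripts averaging at least 1 FPKM in a group (up to 6 per gene), up to 3 genes per list with the largest estimates, the 2 nearest genes to each member, and overlapping genes; RARA and some minor transcripts were named after their values were seen. The alternatives were other pseudocounts, filters, scalings and sums, the replicate block, and leaving out each library. Leaving out a library removes the spread of its group from the fit, so the text gives only the estimates for it.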

Additional observations from a re-analysis of the deposited data

How the results depend on the processing

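FTO kept a positive log2 fold change under every alternative run, between 0.76 and 1.56, and leaving out 1 library at a time gave 0.80 to 1.56. Its limma adjusted p was 0.187 to 0.469 under the alternatives that kept all libraries, except the replicate block. With the block, the log2 fold change of 1.18 had an adjusted p of 0.0408 and 1 member was called, against 0 in the unpaired fit. The FTO libraries did not run together by number, since si-YTHDF3 1 lay above si-YTHDF3 2 but NC 1 below NC 2. The smaller p is therefore no sign of pairing in FTO. MYC, whose estimate NC 2 alone set, likewise went from a limma p of 0.113 without the block to 0.00078 with it. Deviations of same-numbered libraries correlated at -0.11 over 14457 genes. This weak value showed no pairing by number but cannot exclude it, since the noise of each library can hide a shared part. With the block, 81 genes were higher and 51 lower in si-YTHDF3, against 4 and 0 without it. YTHDF3 (adjusted p = 0.00031) and CBLL1 (adjusted p = 0.00307) were among the genes called with the block and not without it. The crossed pairing, chosen after seeing the data, called 0 higher and 0 lower.

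ALKBH1 turned to -0.022 with sums weighted by length and -0.019 with protein-coding transcripts alone. Leaving out 1 library gave -0.086 to 0.14 for ALKBH1, -0.11 to 0.081 for ALKBH5 (above 0 without si-YTHDF3 1), and -0.17 to 0.26 for ALKBH3 (below 0 without NC 1). ALKBH2 stayed between 0.065 and 0.52 under all alternatives. Of the 27 tested list genes with the largest estimates, YTHDF3 included, leaving out 1 library moved the log2 fold change of 19 by over 1.5 times and turned the sign of 0. TRMT6 turned to 0.033 with protein-coding transcripts alone. With no filter on low values all 45 member transcripts entered the fit, and 2 had an unadjusted p under 0.05, against 0 of 14. They were ENST00000472835 (limma adjusted p = 0.778) and ENST00000536242 (limma adjusted p = 0.617). Both were listed at 0 in both NC libraries and stayed under 1 FPKM in si-YTHDF3. The share of all transcripts under 0.05 was not computed for that fit, and was 7.21% in the filtered one.

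Over all genes, 13 were higher and 2 lower with a filter at 5 FPKM, and 18 and 12 with length-weighted sums. No gene was called with no filter or with protein-coding transcripts alone. There were 2 libraries per group and their depth is unknown, which limits all estimates. The cause was not tested.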
